A study of Rattus norvegicus with 18 samples.

Results

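The nuclear genes of oxidative phosphorylation were followed in NRK-52E cells exposed to chlorothalonil. Members were taken by name, as probe sets of an Affymetrix rat expression array with 1 gene symbol starting with Nduf, Uqcr or Atp5, or being Sdha to Sdhd, or Cox4 to Cox8 followed by letters or digits. The brightest probe set stood for each gene and was kept where its log2 level exceeded 4 in 3 or more of 18 arrays. That gave 78 of 85 genes, out of 9149 genes tested in all, with 34 subunits of complex I, 4 of complex II, 7 of complex III, 11 of complex IV and 15 of complex V. The names also brought in 6 assembly factors of complex I (the Ndufaf genes) and Atp5if1, the inhibitor protein of ATP synthase, which are described apart from the subunits. Ndufa4 is counted with complex IV, of which it is a subunit despite its name. All 78 lay above log2 4 in all 18 arrays. The lowest level of any of them was that of Ndufaf1 in a DMSO array at 72 h, 6.59, and the highest level of the 7 genes left out was 3.56, for Cox7a1.

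Oxidative phosphorylation passes electrons from NADH (complex I) or succinate (complex II) through ubiquinone to complex III, by cytochrome c to complex IV, and on to oxygen. Complexes I, III and IV pump protons across the inner mitochondrial membrane, and complex V, the ATP synthase, uses their return to make ATP. Complexes I, III, IV and V combine subunits encoded in the nucleus with subunits encoded in mitochondrial DNA, which the names used here do not cover. Kidney proximal tubule cells depend heavily on this pathway to power solute transport.

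NRK-52E is an established rat kidney line, labelled as epithelium of the proximal tubule of an Osborne-Mendel rat. The treated groups received chlorothalonil, a chlorinated nitrile fungicide that reacts with thiols, at 1.1 µM in 0.1% DMSO, a dose the labels give as the one inhibiting by 10% at 72 h, and the control groups received DMSO alone. Cells were confluent at exposure, and RNA was taken at 6, 24 and 72 h from both treatments, giving 6 groups of 3 arrays. The labels call these biological replicates, so p-values measure the spread between such arrays of 1 line. Levels are log2 values as deposited, so a difference of 1 is a fold of 2. A gene is said to have risen or fallen where its limma p, adjusted over the 9149 genes by the Benjamini-Hochberg method, was below 0.05. Levels of different genes are not compared, since probe sets differ in response.

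Within groups, pairs of arrays had correlations between 0.992 and 0.998. Of 9 proximal tubule markers on the array, 7 exceeded log2 4 in no array, Lrp2, Cubn, Slc34a1 and Hnf4a among them, and none did so in all arrays, so most of the markers that define the labelled cell type were at background. Of 8 general epithelial markers 3 (Krt8, Ocln and Tjp1) were above that level throughout, as were 3 of 8 fibroblast and myofibroblast markers (Col1a1, Col3a1 and Acta2). Cdh1 and Epcam of the epithelial list and Pdgfra, Dcn and Lum of the fibroblast list exceeded it in no array, while Cd14 of the leukocyte list and Wt1 of the podocyte list did so in all 18. The probe sets of the spiked poly-A control transcripts were brighter in chlorothalonil arrays (means of 10.46 to 11.19) than in DMSO arrays (8.97 to 10.28). The DMSO arrays of 24 h read 8.97, 10.11 and 10.28, so poly-A scaling at that time depends in part on replicate 1. Poly-A scaling without that array was not run. When arrays were scaled to 24 of these 27 probe sets, the median change of all genes moved to -0.62, -1.02 and -0.60 at 6, 24 and 72 h, and that of the members to -0.50, -0.89 and -0.41. The members' median stood 0.12, 0.13 and 0.19 above that of all genes at the 3 times under both scalings. Poly-A scaling shifts all genes of an array alike, so it could not change this gap. Under quantile normalization, which can change it, the gap was 0.056, 0.066 and 0.17. Directions below are therefore relative to the other transcripts of the same array, and the part of total RNA per cell in them was not tested.

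More oxidative phosphorylation genes were higher than lower under chlorothalonil at each time on the deposited scale (the members' medians turn negative under poly-A scaling, as above). The 6 Ndufaf assembly factors had larger medians than the subunits of any complex at 24 and 72 h, and not at 6 h. The 12 complex I assembly factors of other names, outside the members, had medians of 0.19, 0.11 and 0.33 at the 3 times. At 6 h, 29 of 78 members were higher, where 27.8% of all genes were higher, and 1 was lower, where 31.8% of all genes were lower. At 24 h, 41 were higher beside 39.1% of all genes, and 6 were lower beside 31.1%. At 72 h, 50 were higher beside 37.2% of all genes, and 3 were lower beside 27.0%. The share of members called higher was thus 37.2%, 52.6% and 64.1% at the 3 times, and the share called lower 1.28%, 7.69% and 3.85%. In this fit of the deposited values, the members' shares lay above the all-gene shares for higher calls and below them for lower calls at all 3 times. The median change over the members was 0.11 at 6 h, 0.18 at 24 h and 0.26 at 72 h, where the median of all genes was -0.0097, 0.057 and 0.074. At the 3 times 1, 3 and 3 of the 78 members differed by 1 log2 unit or more, all of them upward. The like share of all genes was not counted. The member at 6 h was Cox5a by its 1-symbol probe set, where a brighter probe set of several symbols gave 0.12. Assembly factors made up all 3 at 24 h and 2 of the 3 at 72 h. Of 130 calls in all, 3 were made with overlapping chlorothalonil and DMSO arrays. Overlap was not counted over all genes, so this is no measure of how the members compare with them. Leaving out chlorothalonil replicate 2 or 3 or DMSO replicate 1 of 24 h left 3 of the 6 lower calls of that time. With arrays centred on their medians, 48 members were higher and none lower at 6 h, and 35 were higher and 11 lower at 24 h. With quantile normalization 20 were higher and 4 lower at 6 h. On the poly-A scale 0, 1 and 0 members were higher and 3, 56 and 4 lower at the 3 times. The all-gene shares under these alternative scalings are not given, so such counts do not show how the members compare with all genes.

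**Figure D1:**
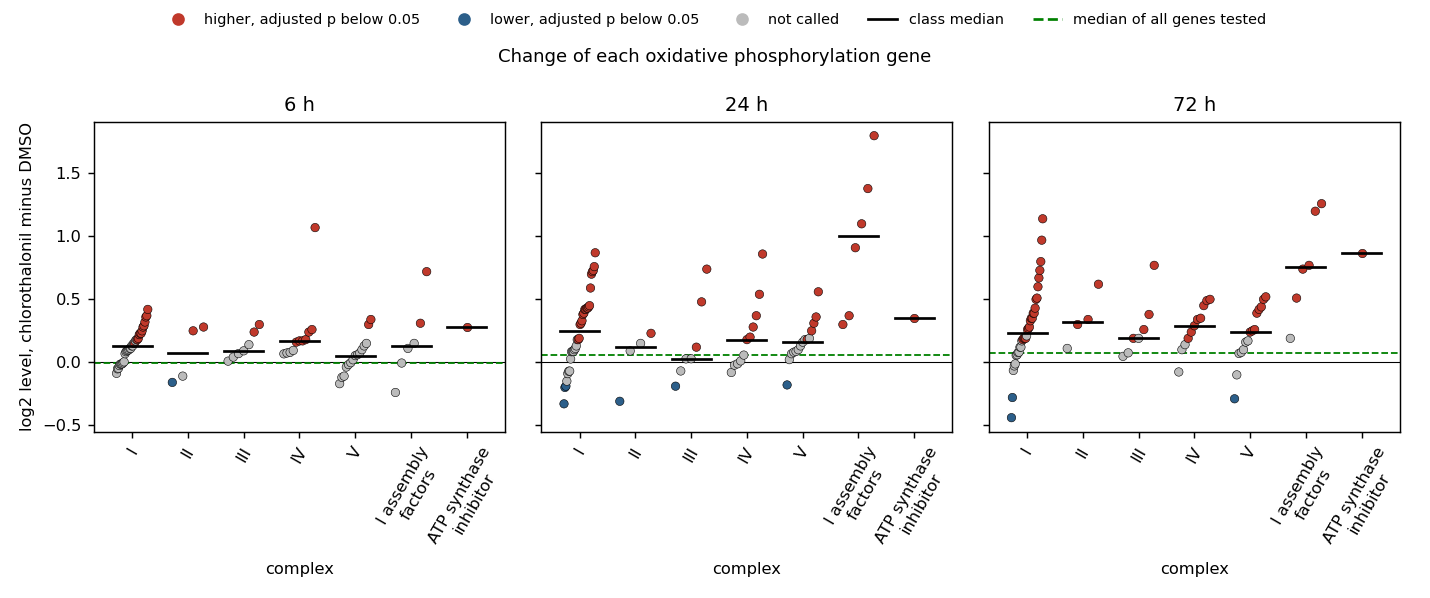
Each point is 1 gene, placed by its complex along the horizontal axis and by its log2 level in chlorothalonil minus DMSO on the vertical axis, in a panel for 6, 24 and 72 h (means of 3 arrays per group). Red points were higher and blue points lower at an adjusted p below 0.05, black bars are class medians and the dashed line is the median of all 9149 genes. On the deposited scale the class medians lie at or above zero at each time, with that of the assembly factors at 1.01 at 24 h, while under poly-A scaling all of them are negative apart from the assembly factors and the inhibitor at 72 h.

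The 6 Ndufaf genes, whose products help to build complex I and are absent from the finished enzyme, had the largest median of any class at 24 h. At 6 h 2 of the 6 were higher, at 24 h all 6 and at 72 h 5, with none lower. These shares of 33.3%, 100% and 83.3% stood beside 27.8%, 39.1% and 37.2% of all genes. The median change of the 6 was 0.13, 1.01 and 0.76. On the poly-A scale those medians were -0.48, -0.066 and 0.084, the value at 24 h depending in part on 1 DMSO array (poly-A mean 8.97). Most of these rises are thus relative to other transcripts. At 24 h 3 of them differed by 1 log2 unit or more, while the class mean separated the treatments. Their mean level over the 6 genes was 9.85, 9.78 and 9.88 in the chlorothalonil arrays at 24 h, against 8.85, 8.96 and 8.76 in the DMSO arrays.

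Ndufaf4, which acts early in the assembly of complex I together with Ndufaf3, had log2 levels of 10.95, 10.87 and 11.13 in chlorothalonil arrays, against 9.11, 9.19 and 9.23 in DMSO arrays at 24 h. The groups were far apart, by 1.80 ± 0.1 (SE), adjusted p = 5.78e-10, or 3.49-fold. At 6 h the levels were 11.37, 11.15 and 11.15 in chlorothalonil arrays, against 11.15, 11.36 and 11.18 in DMSO arrays, and at 72 h 10.01, 9.75 and 9.62 in chlorothalonil arrays, against 9.65, 9.55 and 9.60 in DMSO arrays, with overlapping groups and no call at both times. In DMSO the gene fell by 2.05 ± 0.10 (SE, adjusted p = 1.29e-10) at 24 h against 6 h, while under chlorothalonil it changed by -0.24 ± 0.1 (SE), adjusted p = 0.0484. Under chlorothalonil it then changed by -1.19 ± 0.1 (SE), adjusted p = 4.82e-08 at 72 h against 24 h. The gap at 24 h thus lay beside a decline in DMSO, and the treatment effect at 24 h exceeded that at 6 h by 1.81 ± 0.14 (SE), adjusted p = 8.48e-08. It was the only member called higher on the poly-A scale at 24 h, by 0.73.

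Ndufaf1, a core part of the complex that assembles the membrane arm, had 8.40, 8.57 and 8.70 in chlorothalonil arrays, against 6.95, 7.52 and 7.06 in DMSO arrays at 24 h. All treated arrays were higher, by 1.38 ± 0.13 (SE), adjusted p = 1.65e-07. At 72 h its levels were 7.75, 7.93 and 7.86 in chlorothalonil arrays, against 6.59, 6.62 and 6.72 in DMSO arrays, a difference of 1.20 ± 0.13 (SE), adjusted p = 1.1e-06. Unlike Ndufaf4, it was higher at 24 h than at 6 h within the treated cultures, by 1.15 ± 0.13 (SE), adjusted p = 2.22e-06, and fell by 0.54 ± 0.13 (SE, adjusted p = 0.00219) in DMSO at 72 h against 24 h.

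Ndufaf3, the partner of Ndufaf4, rose at every time. Its levels were 10.12, 10.06 and 9.97 in chlorothalonil arrays, against 9.20, 9.35 and 9.44 in DMSO arrays at 6 h, a difference of 0.72 ± 0.077 (SE), adjusted p = 1.44e-06. At 24 h the levels were 10.14, 9.99 and 10.04 in chlorothalonil arrays, against 9.88, 9.70 and 9.70 in DMSO arrays, a smaller difference of 0.30 ± 0.077 (SE), adjusted p = 0.00323. At 72 h the arrays read 10.73, 10.88 and 10.77 under chlorothalonil and 9.45, 9.60 and 9.56 under DMSO, the widest gap of the 3 times, with 1.26 ± 0.077 (SE), adjusted p = 3.4e-09. The drop in effect to 24 h (-0.42 ± 0.11 (SE), adjusted p = 0.00342) and the gain to 72 h (0.96 ± 0.11 (SE), adjusted p = 3.29e-06) both passed the test.

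Ndufaf8 and Ndufaf5 work together, Ndufaf5 being the enzyme that hydroxylates an arginine of the subunit Ndufs7 and Ndufaf8 its stabilising partner. Ndufaf8 rose at all 3 times. At 24 h it had 10.55, 10.70 and 10.73 in chlorothalonil arrays, against 9.61, 9.62 and 9.43 in DMSO arrays, a difference of 1.10 ± 0.088 (SE), adjusted p = 2.9e-08, and it differed by 0.31 ± 0.088 at 6 h and 0.74 ± 0.088 at 72 h. Ndufaf5 had smaller changes, 0.37 ± 0.07 (SE), adjusted p = 0.000223 at 24 h and 0.51 ± 0.07 (SE), adjusted p = 1.36e-05 at 72 h, with no overlap between groups at either time. Its levels at 72 h were 9.34, 9.15 and 9.21 in chlorothalonil arrays, against 8.77, 8.75 and 8.67 in DMSO arrays. Ndufaf7, an arginine methyltransferase, had 9.73, 9.39 and 9.34 in chlorothalonil arrays, against 8.70, 8.80 and 8.22 in DMSO arrays at 24 h, a difference of 0.91 ± 0.14 (SE), adjusted p = 3.02e-05. At 72 h it differed by 0.77 ± 0.14 (SE), adjusted p = 0.000207. A dimmer probe set of Ndufaf7, with a mean level of 4.52 near background, gave 0.35, 1.20 and -0.56 at the 3 times, so the direction at 72 h rests on the brighter one.

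**Figure D2:**
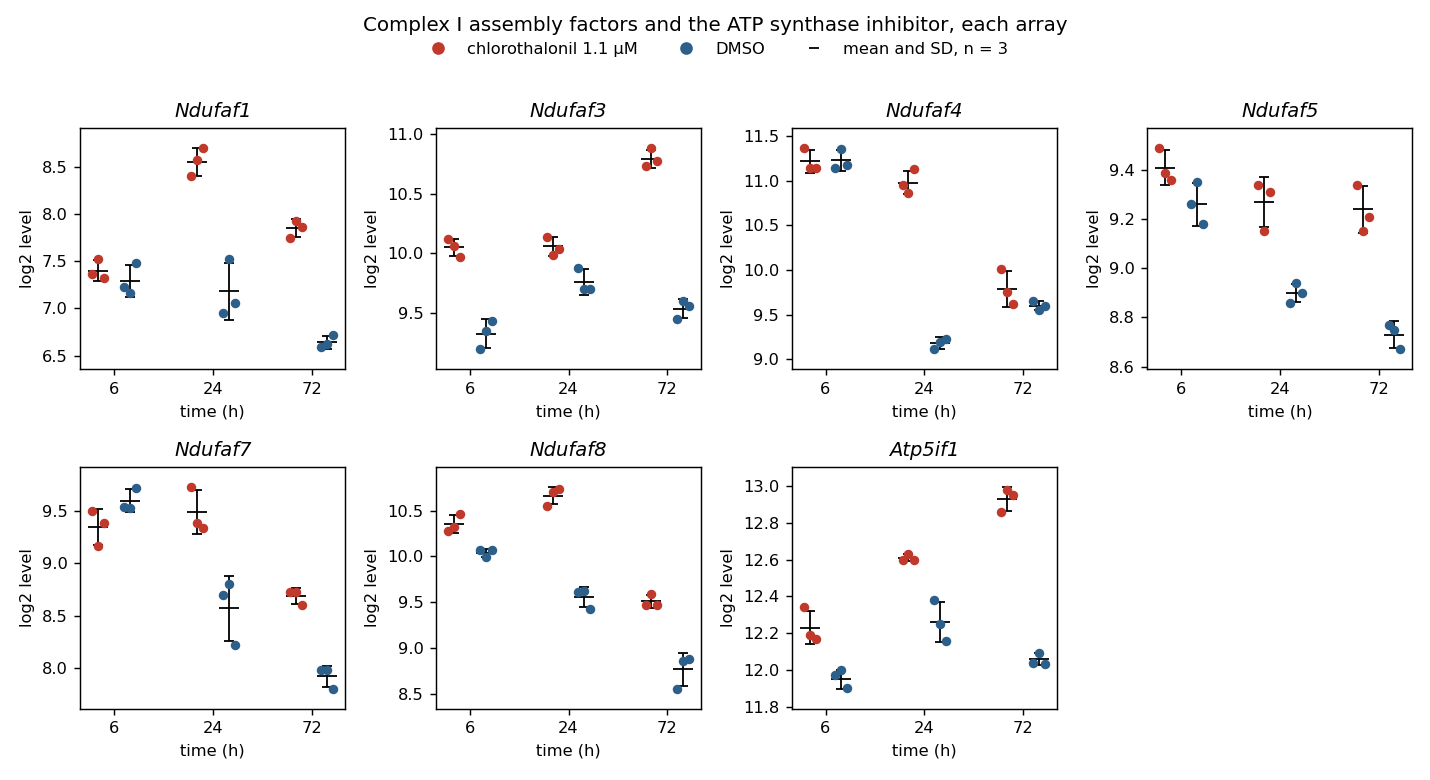
Log2 level (vertical axis) of the 6 Ndufaf assembly factors and of Atp5if1 in each array at 6, 24 and 72 h (horizontal axis, evenly spaced), chlorothalonil in red to the left of DMSO in blue, with the mean and SD of 3 arrays. At 24 h no chlorothalonil array of any of the 7 genes lies as low as a DMSO array, and Ndufaf4 stands at 10.87 to 11.13 in treated arrays beside 9.11 to 9.23 in DMSO arrays.

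The promoter windows of these genes, from 250 bases before to 50 after the annotated start, are shown for a pair of the assembly factors that rose by over 1 log2 unit at 24 h and hold a searched motif, and were taken from RefSeq (assembly GRCr8). A promoter was on hand for 72 of the 78 members. They were searched on both strands for CGCATGCG, the core of the NRF1 site and its own reverse complement, for CCGGAAGT, an ETS site of the kind bound by GABP, and for AAGATGGCG, a YY1 site. Letters that match 1 of these are in capitals. NRF1, GABP and YY1 are transcription factors known to bind promoters of respiratory genes in mammals.
Ndufaf4: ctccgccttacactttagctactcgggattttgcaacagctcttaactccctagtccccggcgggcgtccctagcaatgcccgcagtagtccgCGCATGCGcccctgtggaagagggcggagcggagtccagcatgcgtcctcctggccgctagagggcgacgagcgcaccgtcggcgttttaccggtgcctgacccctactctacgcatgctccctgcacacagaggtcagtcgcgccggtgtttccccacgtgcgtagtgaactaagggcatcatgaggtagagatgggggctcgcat
Ndufaf8: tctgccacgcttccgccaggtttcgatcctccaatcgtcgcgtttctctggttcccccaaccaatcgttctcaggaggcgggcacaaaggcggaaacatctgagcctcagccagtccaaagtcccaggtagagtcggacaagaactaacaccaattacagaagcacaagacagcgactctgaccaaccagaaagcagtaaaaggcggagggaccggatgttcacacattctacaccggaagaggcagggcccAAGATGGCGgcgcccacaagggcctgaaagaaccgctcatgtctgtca
The Ndufaf4 window (chr5:43401545-43401844, plus strand) holds CGCATGCG starting 157 bases before the start, and the Ndufaf8 window (chr10:105879658-105879957, plus strand) holds AAGATGGCG 2 bases after it. CGCATGCG occurred in 8 of the 72 member promoters (11.1%), in 1.81% of 27457 promoters of all genes in that table and in 4.30% of the 7746 promoters of genes tested here. CCGGAAGT also occurred in 8 (11.1%), beside 4.01% of all promoters and 9.62% of those of tested genes. AAGATGGCG occurred in 11 (15.3%), beside 1.93% and 4.44%. At least 1 of the 3 was present in 25 of 72 member promoters (34.7%), beside 7.25% of all and 17.0% of those of tested genes. No 2 of these motifs overlapped in the windows printed here, and a match describes these letters alone.

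Of the factors named for those motifs, Nrf1 was lower, not higher, at 6 h (7.81, 7.48 and 7.89 under chlorothalonil and 8.33, 8.35 and 8.36 under DMSO, -0.62 ± 0.15 (SE), adjusted p = 0.00177) and at 72 h (-0.61 ± 0.15 (SE), adjusted p = 0.00193), with -0.29 ± 0.15 and no call at 24 h. Gabpa, the DNA-binding subunit of GABP, was lower at all 3 times, by -0.46 ± 0.15, -0.45 ± 0.15 and -0.81 ± 0.15 (SE). Gabpb1, the partner subunit of GABP, went the other way at 6 h, with 9.77, 9.86 and 9.89 in chlorothalonil arrays, against 8.84, 9.03 and 8.78 in DMSO arrays and 0.95 ± 0.14 (SE), adjusted p = 2.33e-05. At 24 h Gabpb1 was higher with overlapping groups (0.37 ± 0.14 (SE), adjusted p = 0.0227), and at 72 h it was uncalled (-0.0039). Yy1 was higher at 24 h (0.43 ± 0.051 (SE), adjusted p = 2.1e-06) and uncalled at the other times. These transcripts were picked for their link to the searched motifs after their values were seen, and protein levels were not measured.

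Complex I oxidises NADH and is the largest of the complexes. Of its 34 measured subunits, 13, 19 and 21 were higher at 6, 24 and 72 h and 0, 3 and 2 were lower, with medians of 0.13, 0.25 and 0.23 on the deposited scale (-0.48, -0.83 and -0.44 on the poly-A scale). Of these, 6 rose at all 3 times, and 4 rose at 1 time and fell at another. The shares of the 34 that were higher were 38.2%, 55.9% and 61.8%, beside 27.8%, 39.1% and 37.2% of all genes. Among the 6 measured core subunits (Ndufs1, Ndufs3, Ndufs7, Ndufs8, Ndufv1 and Ndufv2), most of which carry the flavin or iron-sulfur clusters, 3 were higher at 6 h, 5 at 24 h and 3 at 72 h, and 1 was lower at 72 h. Their changes at 24 h ran from 0.18 to 0.42.

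Ndufv2, a core subunit of the NADH-oxidising module, was among those that rose at all times. Its levels were 12.28, 12.32 and 12.41 in chlorothalonil arrays, against 11.97, 11.99 and 12.07 in DMSO arrays at 24 h, a difference of 0.33 ± 0.05 (SE), adjusted p = 3.36e-05, and it differed by 0.19 ± 0.05 at 6 h and 0.35 ± 0.05 at 72 h. The groups did not overlap at any time, and none of the differences between times passed the test. Ndufs8, a core subunit with iron-sulfur clusters, turned in direction. At 6 h it had 10.90, 10.64 and 10.73 in chlorothalonil arrays, against 10.41, 10.41 and 10.48 in DMSO arrays, 0.32 ± 0.098 (SE), adjusted p = 0.0108, and that call was lost without chlorothalonil replicate 1 at 6 h (value of 0.25). At 72 h it had 9.44, 9.75 and 9.82 in chlorothalonil arrays, against 9.86, 10.00 and 9.98 in DMSO arrays, -0.28 ± 0.098 (SE), adjusted p = 0.0217, and that call was lost without any 1 of chlorothalonil replicate 1 at 72 h and DMSO replicates 2 and 3 at 72 h (values of -0.26 to -0.16). The treatment effect on Ndufs8 fell by 0.60 ± 0.14 (SE, adjusted p = 0.00175) between 6 and 72 h.

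The largest rise and the largest fall within complex I at 24 and 72 h were in accessory subunits, which surround the core. The accessory subunits as a set were not compared with the core. Ndufab1, the mitochondrial acyl carrier protein, had the largest rise within the complex at 24 h, with levels of 13.35, 13.32 and 13.37 in chlorothalonil arrays, against 12.46, 12.58 and 12.38 in DMSO arrays and a difference of 0.87 ± 0.062 (SE), adjusted p = 8.51e-09. It was uncalled at 6 h (0.11) and differed by 0.50 ± 0.062 at 72 h. In DMSO it fell by 0.70 ± 0.062 (SE, adjusted p = 7.82e-08) at 24 h against 6 h, whereas treated levels differed by 0.063 ± 0.062 over that interval. Ndufa5, next to the ubiquinone-reducing part of the enzyme, had 12.18, 12.54 and 12.54 in chlorothalonil arrays, against 11.13, 11.27 and 11.44 in DMSO arrays at 72 h, all treated arrays being higher by 1.14 ± 0.096 (SE), adjusted p = 9.71e-08. This was 2.2-fold and the largest change of any subunit at 72 h. At 24 h it differed by 0.70 ± 0.096 (SE), adjusted p = 1.02e-05 and at 6 h by 0.084 ± 0.096 with no call. Its levels were lower in DMSO at 72 h against 24 h, by -0.68 ± 0.096 (SE), adjusted p = 2.42e-05, and changed by -0.24 ± 0.096 in treated cultures.

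The other accessory subunits that rose at every time were Ndufa7, Ndufa8, Ndufb3, Ndufb6 and Ndufb7. Ndufa7 had 11.78, 11.97 and 12.02 in chlorothalonil arrays, against 11.05, 11.10 and 11.21 in DMSO arrays at 72 h, 0.80 ± 0.087 (SE), adjusted p = 1.34e-06. Its second, dimmer probe set (mean level 6.51) gave 0.98 at 6 h, 0.62 at 24 h and -1.03 at 72 h, beside 0.36, 0.45 and 0.80 for the brighter one, and the mean of both at 72 h was -0.12. The probe sets of Ndufa7 thus disagree at 72 h. Ndufa8, an intermembrane-space subunit with paired cysteine motifs, had 12.16, 12.17 and 12.14 in chlorothalonil arrays, against 11.61, 11.58 and 11.50 in DMSO arrays at 24 h, 0.59 ± 0.056 (SE), adjusted p = 1.92e-07. Its call at 6 h (0.15 ± 0.056) was lost without any 1 of chlorothalonil replicates 2 and 3 at 6 h and DMSO replicates 2 and 3 at 6 h (values of 0.13 to 0.15). At 72 h it differed by 0.33 ± 0.056.

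Ndufb7, of the same cysteine-motif type, peaked in effect at 24 h, with 11.97, 11.88 and 11.76 in chlorothalonil arrays, against 11.13, 11.14 and 11.06 in DMSO arrays. That difference was 0.76 ± 0.073 (SE), adjusted p = 2.21e-07, beside 0.22 ± 0.073 at 6 h and 0.26 ± 0.073 at 72 h, and the call at 6 h was lost without any 1 of chlorothalonil replicate 1 at 6 h and DMSO replicate 2 at 6 h (values of 0.15 to 0.18). For the membrane-arm subunit Ndufb6, the widest gap was at 72 h, with levels of 12.74, 13.00 and 12.95 in chlorothalonil arrays, against 12.26, 12.25 and 12.37 in DMSO arrays and 0.60 ± 0.073 (SE), adjusted p = 4.46e-06. Ndufb3, also of the membrane arm, differed by 0.23 ± 0.079, 0.30 ± 0.079 and 0.39 ± 0.079 at the 3 times, and its call at 6 h was lost without any 1 of chlorothalonil replicates 1 and 2 at 6 h and DMSO replicates 2 and 3 at 6 h (values of 0.21 to 0.22).

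A further 3 accessory subunits moved in both directions. Ndufb2 had 12.36, 12.30 and 12.25 in chlorothalonil arrays, against 11.87, 11.93 and 11.85 in DMSO arrays at 6 h, the largest rise of complex I at that time (0.42 ± 0.075 (SE), adjusted p = 0.000201). At 24 h it had 12.55, 12.30 and 12.37 in chlorothalonil arrays, against 12.70, 12.58 and 12.52 in DMSO arrays, with groups that overlapped, -0.19 ± 0.075 (SE), adjusted p = 0.0317, and that call was lost without any 1 of chlorothalonil replicates 2 and 3 at 24 h and DMSO replicate 1 at 24 h (values of -0.18 to -0.14). In DMSO it rose by 0.71 ± 0.075 (SE), adjusted p = 4.56e-07 at 24 h against 6 h, and in treated cultures it differed by 0.10 ± 0.075. Ndufa6, a subunit that binds the acyl carrier protein, was lower at 24 h, with 12.07, 11.82 and 11.96 in chlorothalonil arrays, against 12.37, 12.22 and 12.24 in DMSO arrays and -0.33 ± 0.071 (SE), adjusted p = 0.000819, the lowest value of any member at that time. At 72 h it was higher, by 0.19 ± 0.071 (SE), adjusted p = 0.0288, and that call was lost without any 1 of chlorothalonil replicates 2 and 3 at 72 h and DMSO replicates 1 and 2 at 72 h (values of 0.15 to 0.20). Ndufv3, an accessory subunit of the NADH-oxidising module, went the other way, with 10.82, 10.56 and 10.42 in chlorothalonil arrays, against 10.15, 10.18 and 10.19 in DMSO arrays at 24 h (0.43 ± 0.11 (SE), adjusted p = 0.0032) and 9.36, 9.73 and 9.78 in chlorothalonil arrays, against 10.04, 10.03 and 10.10 in DMSO arrays at 72 h (-0.44 ± 0.11 (SE), adjusted p = 0.00317). Its treatment effect fell by 0.86 ± 0.16 (SE, adjusted p = 0.000279) between these times. A second probe set of Ndufv3 gave -0.51, 0.30 and -0.051 at the 3 times, and the decline at 72 h did not pass the threshold with that probe set or with the mean of both (-0.24).

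Complex II, succinate dehydrogenase, joins the tricarboxylic acid cycle to the chain and is encoded wholly in the nucleus. Its 4 subunits did not move alike. At 6 h 2 were higher and 1 lower, at 24 h 1 was higher and 1 lower, and at 72 h 3 were higher, with medians of 0.072, 0.12 and 0.32 (-0.54, -0.95 and -0.35 on the poly-A scale). The shares higher were 50%, 25% and 75%, beside 27.8%, 39.1% and 37.2% of all genes. At 24 h the share was thus below that of all genes, and 4 genes give coarse shares. Sdhb, the iron-sulfur subunit, rose at all 3 times, with 12.43, 12.62 and 12.57 in chlorothalonil arrays, against 11.89, 11.93 and 11.95 in DMSO arrays at 72 h. That difference was 0.62 ± 0.062 (SE), adjusted p = 5.5e-07, beside 0.25 ± 0.062 at 6 h and 0.23 ± 0.062 at 24 h. Sdha, the flavoprotein that oxidises succinate, was lower at 24 h, with 11.74, 11.86 and 11.83 in chlorothalonil arrays, against 12.29, 12.06 and 12.00 in DMSO arrays (-0.31 ± 0.076 (SE), adjusted p = 0.0019), and uncalled at 6 h (-0.11) and 72 h (0.11). Its levels rose with time in both treatments, by 0.69 ± 0.076 in treated cultures and 0.27 ± 0.076 in DMSO at 72 h against 24 h.

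The membrane anchors Sdhc and Sdhd also differed from each other. Sdhc had 11.58, 11.61 and 11.60 in chlorothalonil arrays, against 11.42, 11.18 and 11.35 in DMSO arrays at 6 h, 0.28 ± 0.072 (SE), adjusted p = 0.00375, was uncalled at 24 h (0.15) and was higher at 72 h by 0.30 ± 0.072 (SE), adjusted p = 0.00196. Sdhd was the only member lower at 6 h, with 12.18, 12.08 and 12.06 in chlorothalonil arrays, against 12.25, 12.28 and 12.26 in DMSO arrays and -0.16 ± 0.064 (SE), adjusted p = 0.0481. That call was lost when any 1 of 11 arrays was left out, all but chlorothalonil replicate 1 at 6 h, chlorothalonil replicates 1 and 2 at 24 h, DMSO replicates 1 and 3 at 24 h, chlorothalonil replicate 1 at 72 h and DMSO replicate 3 at 72 h (values of -0.16 to -0.13). At 72 h it was higher, with 12.58, 12.46 and 12.53 in chlorothalonil arrays, against 12.24, 12.20 and 12.10 in DMSO arrays and 0.34 ± 0.064 (SE), adjusted p = 0.000253. A second Sdhd probe set (mean level 11.25) gave -0.0039, 0.29 and 0.68, so both probe sets were higher at 72 h and the decline at 6 h was seen with 1 of them.

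Complex III takes electrons from ubiquinol to cytochrome c. Of 7 subunits, 2, 3 and 4 were higher at the 3 times and 1 was lower, at 24 h. Their medians were 0.091, 0.028 and 0.19 (-0.52, -1.05 and -0.48 on the poly-A scale). At 24 h the median was -0.055 with arrays centred on their medians and -0.046 with quantile normalization. The shares higher were 28.6%, 42.9% and 57.1%, beside 27.8%, 39.1% and 37.2% of all genes, so those at 6 and 24 h were near all genes. Uqcrq, a small accessory subunit, rose at all 3 times with a larger effect at 72 h than at 6 h (0.47 ± 0.11 (SE), adjusted p = 0.00187). Its levels were 13.63, 13.51 and 13.50 in chlorothalonil arrays, against 13.31, 13.18 and 13.25 in DMSO arrays at 6 h, 0.30 ± 0.078 (SE), adjusted p = 0.00388. At 24 h they were 13.56, 13.35 and 13.39 in chlorothalonil arrays, against 13.00, 13.01 and 12.86 in DMSO arrays, 0.48 ± 0.078 (SE), adjusted p = 6.04e-05. At 72 h they were 13.13, 13.28 and 13.34 in chlorothalonil arrays, against 12.37, 12.49 and 12.57 in DMSO arrays, 0.77 ± 0.078 (SE), adjusted p = 6.07e-07. Levels were lower with time in DMSO, by -0.29 ± 0.078 and -0.48 ± 0.078 over the intervals, and by -0.11 ± 0.078 and -0.18 ± 0.078 in treated cultures.

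Uqcrc1, one of the core proteins on the matrix side, was called at 24 h alone. It had 12.40, 12.31 and 12.11 in chlorothalonil arrays, against 11.55, 11.58 and 11.47 in DMSO arrays at 24 h, 0.74 ± 0.086 (SE), adjusted p = 1.94e-06, beside 0.14 at 6 h and 0.19 at 72 h with no call. In DMSO it fell by 0.60 ± 0.086 (SE, adjusted p = 1.37e-05) at 24 h against 6 h. Promoters of these subunits are printed because both moved with treatment and each holds a searched motif.
Uqcrq: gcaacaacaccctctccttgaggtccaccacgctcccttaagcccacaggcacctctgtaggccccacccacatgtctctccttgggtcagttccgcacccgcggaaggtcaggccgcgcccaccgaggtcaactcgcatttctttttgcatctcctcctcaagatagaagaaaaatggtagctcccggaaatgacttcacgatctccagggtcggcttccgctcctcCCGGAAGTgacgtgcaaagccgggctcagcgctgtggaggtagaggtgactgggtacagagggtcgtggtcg
Uqcrc1: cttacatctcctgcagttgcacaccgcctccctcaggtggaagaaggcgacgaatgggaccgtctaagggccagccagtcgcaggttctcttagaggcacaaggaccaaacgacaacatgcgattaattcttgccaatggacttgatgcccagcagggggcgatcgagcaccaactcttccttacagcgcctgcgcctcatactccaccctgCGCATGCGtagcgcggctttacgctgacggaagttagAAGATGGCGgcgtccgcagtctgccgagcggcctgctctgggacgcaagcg
The Uqcrq window (chr10:38089929-38090228, minus strand) holds CCGGAAGT starting 22 bases before the start, and the Uqcrc1 window (chr8:118467973-118468272, plus strand) holds CGCATGCG 38 bases and AAGATGGCG 1 base before it. Among members with CGCATGCG, 2, 4 and 3 of 8 were higher at 6, 24 and 72 h. With CCGGAAGT it was 4, 5 and 6 of 8, and with AAGATGGCG 2, 6 and 7 of 11. In percent these were 25%, 50% and 37.5% for CGCATGCG, 50%, 62.5% and 75% for CCGGAAGT, and 18.2%, 54.5% and 63.6% for AAGATGGCG, where 37.2%, 52.6% and 64.1% of all members and 27.8%, 39.1% and 37.2% of all genes were higher. The members with CGCATGCG were thus below all members at each time, and sets of 8 or 11 genes give coarse shares.

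Uqcr11, the smallest subunit, was higher at 6 h (0.24 ± 0.075 (SE), adjusted p = 0.0117), lower at 24 h (-0.19 ± 0.075 (SE), adjusted p = 0.033) and higher again at 72 h (0.26 ± 0.075 (SE), adjusted p = 0.00631). Its levels at 24 h were 12.99, 12.78 and 12.90 in chlorothalonil arrays, against 13.15, 13.06 and 13.03 in DMSO arrays, without overlap, and that call was lost without any 1 of chlorothalonil replicates 2 and 3 at 24 h and DMSO replicates 1 and 2 at 24 h (values of -0.20 to -0.14). At 6 h they were 13.01, 12.95 and 12.98 in chlorothalonil arrays, against 12.74, 12.72 and 12.76 in DMSO arrays, also without overlap. Uqcrh, the hinge protein that helps cytochrome c to dock, differed by 0.12 ± 0.051 (SE), adjusted p = 0.0485 at 24 h, a call that was lost when any 1 of 16 arrays was left out, all but DMSO replicate 1 at 24 h and chlorothalonil replicate 1 at 72 h (values of 0.10 to 0.13), and by 0.19 ± 0.051 (SE), adjusted p = 0.00453 at 72 h. Uqcrc2 and Uqcrfs1, the second core protein and the Rieske iron-sulfur protein, were called at no time, with changes of -0.069 to 0.075. Cyc1, the cytochrome c1 of this complex, falls outside the naming rule. It had 12.50, 12.36 and 12.31 in chlorothalonil arrays, against 11.64, 11.65 and 11.56 in DMSO arrays at 24 h, 0.77 ± 0.064 (SE), adjusted p = 4.79e-08.

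Complex IV, cytochrome c oxidase, passes electrons to oxygen, and its nuclear subunits often come as pairs of isoforms. Of 11 subunits, 7 were higher at 6 h, 6 at 24 h and 8 at 72 h with none lower, and medians were 0.17, 0.18 and 0.29 (-0.45, -0.90 and -0.38 on the poly-A scale). The shares higher were 63.6%, 54.5% and 72.7%, beside 27.8%, 39.1% and 37.2% of all genes. None of the 7 genes left out for low levels exceeded log2 4 in any array. All are alternative forms of complex IV genes, namely Cox4i2, Cox6a2, Cox6b2, Cox7a1, Cox7b2, Cox8b and Ndufa4l2. Cox6a2, Cox7a1 and Cox8b are known from heart and skeletal muscle, and Ndufa4l2 from hypoxia. Cox4i1, Cox6a1, Cox6b1, Cox7b, Cox8a and Ndufa4, their widely expressed partners, were among the members, and Cox7a2 was on a probe set of several symbols.

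Cox5b, a matrix-side subunit that binds zinc, rose at all 3 times. It had 13.15, 13.10 and 13.12 in chlorothalonil arrays, against 12.63, 12.57 and 12.54 in DMSO arrays at 24 h, 0.54 ± 0.068 (SE), adjusted p = 3.74e-06, and differed by 0.24 ± 0.068 at 6 h and 0.45 ± 0.068 at 72 h. Cox6b1, which links the monomers of the dimer, also rose at each time, with 12.92, 13.08 and 13.14 in chlorothalonil arrays, against 12.46, 12.57 and 12.62 in DMSO arrays at 72 h and 0.50 ± 0.07 (SE), adjusted p = 1.69e-05. At 6 h its call (0.17 ± 0.07) was lost when any 1 of 12 arrays was left out, all but DMSO replicates 1 and 3 at 24 h, chlorothalonil replicates 1 and 3 at 72 h and DMSO replicates 1 and 3 at 72 h (values of 0.12 to 0.20). Cox4i1, which carries a site for ATP that tunes the enzyme, was higher at 6 h (0.16 ± 0.056) and 24 h (0.28 ± 0.056), with 13.62, 13.47 and 13.49 in chlorothalonil arrays, against 13.25, 13.25 and 13.24 in DMSO arrays at 24 h, and was uncalled at 72 h (0.10). The call at 6 h was lost without any 1 of chlorothalonil replicates 1 and 3 at 6 h and DMSO replicates 1 and 2 at 6 h (values of 0.15 to 0.16).

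Cox6a1 rose at 72 h, with 13.68, 13.93 and 14.00 in chlorothalonil arrays, against 13.27, 13.35 and 13.53 in DMSO arrays and 0.49 ± 0.085 (SE), adjusted p = 0.000135, and at 24 h by 0.20 ± 0.085, a call that was lost when any 1 of 11 arrays was left out, all but DMSO replicate 2 at 6 h, chlorothalonil replicates 2 and 3 at 24 h, chlorothalonil replicates 1 and 3 at 72 h and DMSO replicates 1 and 3 at 72 h (values of 0.15 to 0.22). Cox8a, the smallest subunit, had 13.57, 13.72 and 13.82 in chlorothalonil arrays, against 13.29, 13.41 and 13.38 in DMSO arrays at 72 h, 0.34 ± 0.06 (SE), adjusted p = 0.000149, was uncalled at 24 h (-0.023) and differed by 0.17 ± 0.06 at 6 h. That early call was lost without any 1 of chlorothalonil replicate 2 at 6 h and DMSO replicates 2 and 3 at 6 h (values of 0.15 to 0.17). Ndufa4 differed by 0.18 ± 0.069 at 24 h and 0.29 ± 0.069 at 72 h, and the first of these calls was lost without any 1 of chlorothalonil replicates 1 and 2 at 24 h and DMSO replicates 2 and 3 at 24 h (values of 0.16 to 0.17). Cox7a2l, which takes part in supercomplexes of the chain, had its larger changes with time. It rose by 0.71 ± 0.061 in treated cultures and 0.58 ± 0.061 in DMSO at 72 h against 24 h, while the treatment differences were 0.26 ± 0.061 at 6 h, 0.057 at 24 h with no call and 0.19 ± 0.061 at 72 h. The last of these was lost without chlorothalonil replicate 1 at 72 h (value of 0.16).

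Cox5a, a matrix-side subunit, had the largest change of any member at 6 h by its 1-symbol probe set. The levels were 8.26, 8.55 and 8.80 in chlorothalonil arrays, against 7.39, 7.56 and 7.46 in DMSO arrays at 6 h, 1.07 ± 0.17 (SE), adjusted p = 5.58e-05. At 24 h they were 8.73, 8.47 and 8.60 in chlorothalonil arrays, against 7.86, 7.48 and 7.88 in DMSO arrays, 0.86 ± 0.17 (SE), adjusted p = 0.000283, and at 72 h the groups overlapped with 0.14 and no call. A much brighter probe set, annotated to Cox5a and to a second locus and so outside the naming rule, gave 0.12, 0.56 and 0.23 at the 3 times, with a mean level of 13.24 beside 8.16. The size of the change in Cox5a therefore depends on the probe set, and which transcripts the dim one reports was not tested.

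**Figure D3:**
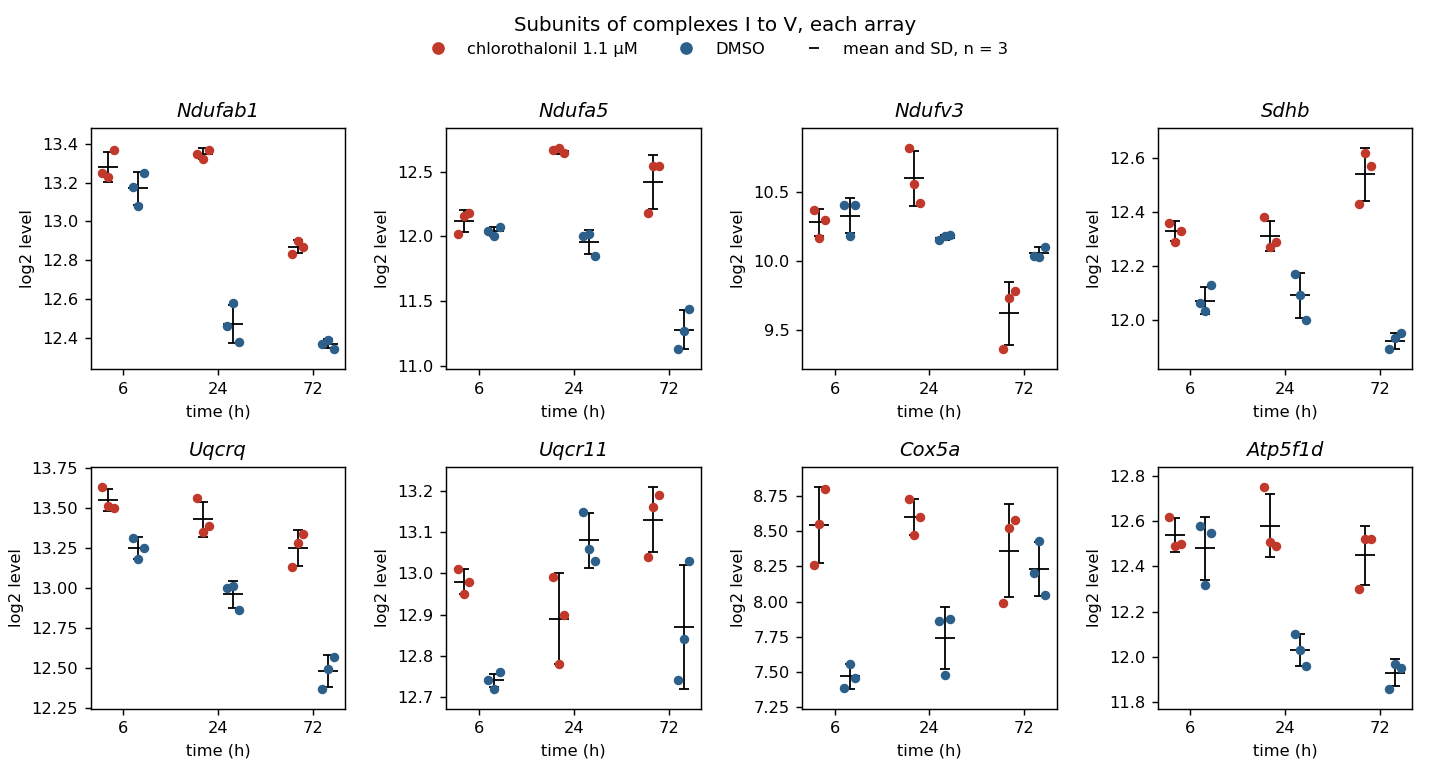
Log2 level (vertical axis) of 8 subunits in each array at 6, 24 and 72 h (horizontal axis, evenly spaced), chlorothalonil in red to the left of DMSO in blue, with the mean and SD of 3 arrays. Ndufab1 differs by 0.87 at 24 h and Ndufa5 by 1.14 at 72 h, Ndufv3 is higher at 24 h and lower at 72 h under chlorothalonil, and Uqcr11 is lower at 24 h only. These are values on the deposited scale, on which signs turn for most genes when arrays are scaled to the poly-A controls.

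Complex V makes ATP with a catalytic head and a membrane rotor. Of 15 subunits, 2 were higher at 6 h, 5 at 24 h and 8 at 72 h, and 0, 1 and 1 were lower, with medians of 0.053, 0.16 and 0.24 (-0.56, -0.92 and -0.43 on the poly-A scale). With quantile normalization the median at 6 h was -0.037. The shares higher were 13.3%, 33.3% and 53.3%, beside 27.8%, 39.1% and 37.2% of all genes, so those at 6 and 24 h were below all genes. Atp5f1d, the delta subunit of the central stalk, had 12.75, 12.51 and 12.49 in chlorothalonil arrays, against 12.10, 12.03 and 11.96 in DMSO arrays at 24 h, 0.56 ± 0.089 (SE), adjusted p = 4.92e-05. At 72 h it had 12.30, 12.52 and 12.52 in chlorothalonil arrays, against 11.86, 11.97 and 11.95 in DMSO arrays, 0.52 ± 0.089 (SE), adjusted p = 0.000118, and at 6 h 0.053 with no call. Atp5f1a, the alpha subunit of the head, was lower at 72 h, as no other subunit of complex V was, with 12.78, 12.80 and 12.82 in chlorothalonil arrays, against 13.09, 13.15 and 13.05 in DMSO arrays and -0.29 ± 0.075 (SE), adjusted p = 0.00315. Atp5f1b, the catalytic beta subunit, was higher then by 0.24 ± 0.084 (SE), adjusted p = 0.0204, so these partners of the head moved apart at 72 h.

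Atp5me, of the membrane part, was higher at 6 h, with 11.08, 10.96 and 11.10 in chlorothalonil arrays, against 10.67, 10.85 and 10.60 in DMSO arrays and 0.34 ± 0.1 (SE), adjusted p = 0.00985, and at 72 h by 0.39 ± 0.1. Atp5f1e, the epsilon subunit, was higher at 6 h alone (0.30 ± 0.079 (SE), adjusted p = 0.00406). Atp5mf, another membrane subunit, was lower at 24 h, with 14.02, 13.97 and 14.06 in chlorothalonil arrays, against 14.24, 14.21 and 14.15 in DMSO arrays and -0.18 ± 0.057 (SE), adjusted p = 0.00935, and higher at 72 h, with 14.13, 14.22 and 14.24 in chlorothalonil arrays, against 13.85, 13.96 and 13.98 in DMSO arrays and 0.26 ± 0.057 (SE), adjusted p = 0.000931. Subunit c, which forms the rotor ring, is encoded by a family of genes. Atp5mc3 was higher at 24 h, with 13.81, 13.76 and 13.75 in chlorothalonil arrays, against 13.53, 13.55 and 13.50 in DMSO arrays and 0.25 ± 0.068 (SE), adjusted p = 0.00465, and uncalled at 6 h (-0.038) and 72 h (-0.10). Probe sets for Atp5mc1 and Atp5mc2 carried the symbol of a second locus too and were not tested, and they gave 0.18, 0.77 and 0.44, and 0.18, -0.25 and 0.34. In all, 7 probe sets of such genes carried several symbols, the others being for Cox7a2, Cox5a, Uqcrb, Ndufs5 and Ndufa10. Their reports cannot be given to 1 gene.

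Atp5if1, which blocks ATP hydrolysis by complex V when the proton gradient fails, rose at all 3 times. At 6 h it had 12.34, 12.19 and 12.17 in chlorothalonil arrays, against 11.97, 12.00 and 11.90 in DMSO arrays, 0.28 ± 0.064 (SE), adjusted p = 0.00166. At 24 h the levels were 12.60, 12.63 and 12.60 in chlorothalonil arrays, against 12.38, 12.25 and 12.16 in DMSO arrays, 0.35 ± 0.064 (SE), adjusted p = 0.000179. At 72 h they were 12.86, 12.98 and 12.95 in chlorothalonil arrays, against 12.04, 12.09 and 12.03 in DMSO arrays, 0.87 ± 0.064 (SE), adjusted p = 2.17e-08, or 1.83-fold. Treated levels rose over both intervals, by 0.38 ± 0.064 and 0.32 ± 0.064, while DMSO levels rose by 0.31 ± 0.064 and then fell by 0.21 ± 0.064. The effect was larger at 72 h than at 24 h by 0.52 ± 0.091 (SE), adjusted p = 0.000177.

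Across the complexes, 13 of 78 members (16.7%) rose at all 3 times, where 10.1% of all genes did so, and none fell at all 3, where 7.4% did. The 13 were Ndufa7, Ndufa8, Ndufb3, Ndufb6, Ndufb7, Ndufv2, Ndufaf3, Ndufaf8, Sdhb, Uqcrq, Cox5b, Cox6b1 and Atp5if1. Of these, Ndufa8, Ndufb3, Ndufb7 and Cox6b1 lost their call at 6 h when certain single arrays were left out. Ndufa7 gave -0.12 at 72 h with the mean of its probe sets. The like losses among all genes were not counted. A further 7 (8.97%) rose at 1 time and fell at another, where 25.4% of all genes did so, and of these Ndufb2, Ndufa6, Uqcr11 and Atp5mf were lower at 24 h. At both 24 and 72 h the same 32 members (41.0%) were higher, where 21.7% of all genes were. Called at no time were 8 members (10.3%, beside 6.81% of all genes), namely Atp5f1c, Atp5pb, Atp5pf and Atp5po of complex V, Ndufa13 and Ndufb4 of complex I, and Uqcrc2 and Uqcrfs1 of complex III.

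Whether the effect itself changed between times was tested as a difference of differences. From 6 to 24 h it became more positive for 20 of 78 members, where 39.6% of all genes did so, and more negative for 8, where 23.4% did. From 24 to 72 h it became more positive for 22 (27.9% of all genes) and more negative for 15 (29.8%). From 6 to 72 h the counts were 32 (37.4%) and 6 (21.6%). The shares of members were 25.6%, 28.2% and 41.0% upward, of which the first was below that of all genes and the others near it. Leaving out chlorothalonil replicate 1 or DMSO replicate 3 of 72 h left 3 of the 6 declines from 6 to 72 h. With arrays centred on their medians the counts were 13 upward and 26 downward from 6 to 24 h, and 18 and 17 from 6 to 72 h. Whether more members' effects moved up or down from 6 to 24 h thus depends on the centring.

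The course within each treatment is set beside these values, and it shares arrays with them. In DMSO at 24 h against 6 h, 19 members were higher (32.9% of all genes) and 22 lower (40.0%). At 72 h against 24 h in DMSO, 10 were higher (36.3%) and 31 lower (24.3%), and 19 or 16 were lower without DMSO replicate 1 of 24 h or DMSO replicate 1 of 72 h. In chlorothalonil at 24 h against 6 h, 19 were higher (34.6%) and 5 lower (24.9%), and the lower count was 1 to 3 without any 1 of chlorothalonil replicates 1 and 2 and DMSO replicates 1 and 3 at 6 h and chlorothalonil replicates 2 and 3 at 24 h. At 72 h against 24 h under chlorothalonil, 23 were higher (39.5%) and 26 lower (33.3%). The share of members lower in DMSO over that last interval was 39.7%, above that of all genes. With arrays centred, the counts higher and lower were 29 and 16 in DMSO and 15 and 13 under chlorothalonil at 24 h against 6 h, and 17 and 33 under chlorothalonil at 72 h against 24 h. With quantile normalization they were 28 and 1 under chlorothalonil at 24 h against 6 h.

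By complex, the DMSO course from 24 to 72 h was downward for 8 of 15 subunits of complex V, 10 of 34 of complex I, 3 of 7 of complex III and 5 of 6 assembly factors, and upward for 1, 4, 0 and 1. The shares lower were 53.3%, 29.4%, 42.9% and 83.3%, beside 24.3% of all genes, so that of complex I was near all genes. These shares were not counted with an array left out, where the count over all members went down to 16. The shares higher were 6.67%, 11.8%, 0% and 16.7%, beside 36.3%. Complexes II and IV had 1 and 3 subunits higher and 1 and 3 lower, or 25% and 27.3% in each direction. Over the same interval under chlorothalonil, 15 of 34 subunits of complex I and 4 of 6 assembly factors fell, and 3 of 4 subunits of complex II rose. These were 44.1% and 66.7% lower, beside 33.3% of all genes, and 75% higher, beside 39.5%. The mean over the 4 subunits of complex II was 12.29, 12.36 and 12.37 in treated arrays at 72 h, against 11.98, 12.01 and 12.00 in DMSO arrays, without overlap. For complex IV the means at 72 h were 12.94, 13.13 and 13.19 in treated arrays, against 12.75, 12.83 and 12.86 in DMSO arrays.

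**Figure D4:**
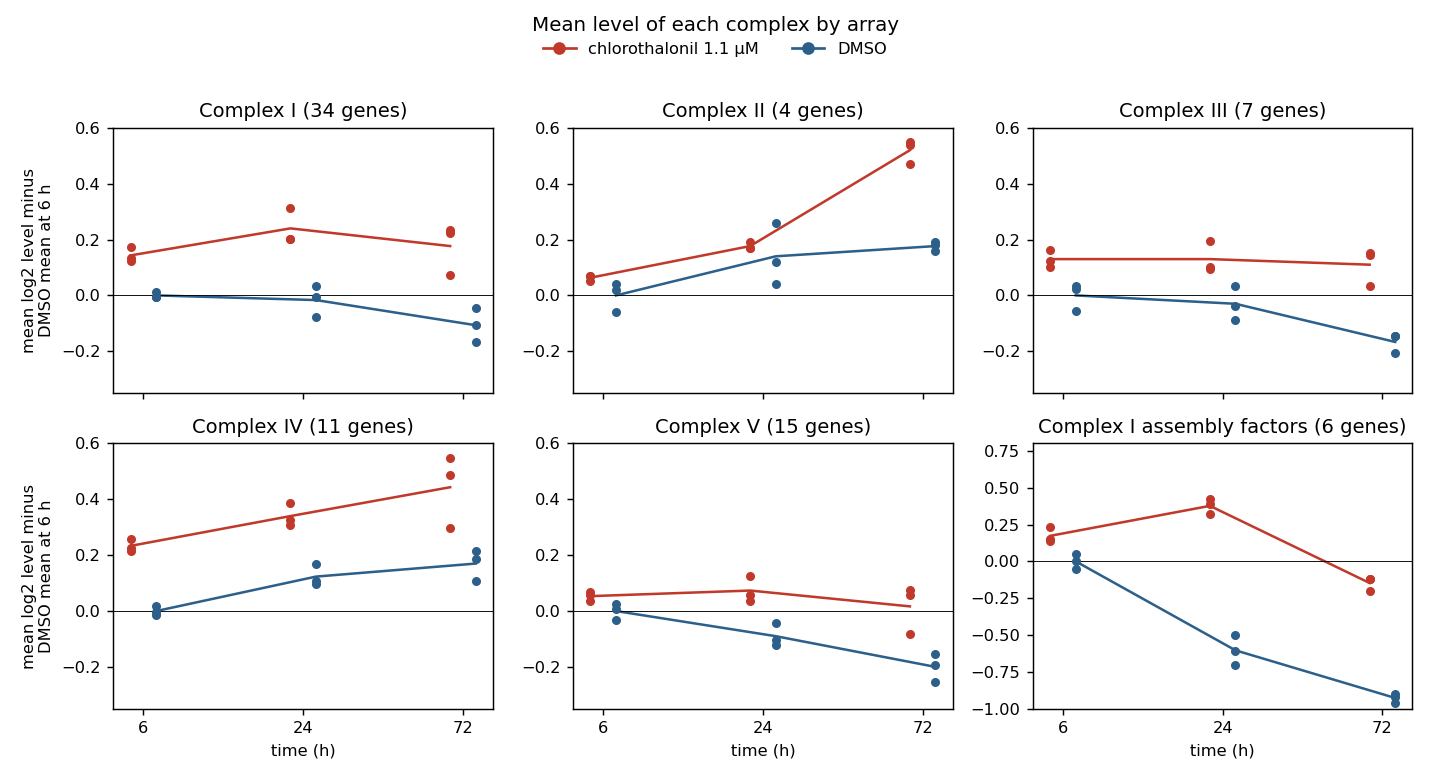
Mean log2 level over the genes of a complex in each array, minus the DMSO mean at 6 h (vertical axis, with a wider range for the assembly factors), at 6, 24 and 72 h (horizontal axis, evenly spaced), chlorothalonil in red to the left of DMSO in blue. Lines join group means of 3 arrays. On the deposited scale the assembly factors were lower with time in DMSO, at 8.50 to 8.56 by 72 h beside 9.26 to 9.34 in treated arrays, and the separation under treatment is relative to other transcripts, since signs turn under poly-A scaling for all panels but the assembly factors at 72 h.

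Genes around the respiratory chain were described from 6 lists, with the counts read beside the all-gene shares given above (higher 27.8%, 39.1% and 37.2%). Assembly factors of complexes II to V had 9, 20 and 13 of 26 measured genes higher at the 3 times and 7, 3 and 2 lower, with a median of 0.51 at 24 h. Sco1, which carries copper to complex IV, had 9.64, 9.60 and 9.48 in chlorothalonil arrays, against 8.39, 8.63 and 8.30 in DMSO arrays at 24 h, 1.13 ± 0.078 (SE), adjusted p = 6.04e-09. Uqcc2, needed to make the cytochrome b of complex III, had 11.55, 11.37 and 11.32 in chlorothalonil arrays, against 10.08, 10.22 and 10.02 in DMSO arrays at 24 h, 1.30 ± 0.093 (SE), adjusted p = 8.71e-09. Cox16, an assembly factor of complex IV, differed by 0.48 ± 0.048 (SE), adjusted p = 3.02e-07. All 3 rose at 24 h with no overlap. The other complex I assembly factors had 6, 5 and 8 of 12 higher and 3, 2 and 2 lower. Their shares higher were 50%, 41.7% and 66.7%, with medians of 0.19, 0.11 and 0.33, so the share at 24 h was near all genes. Lyrm2 (0.93 ± 0.053 (SE), adjusted p = 1.47e-09), the iron-sulfur carrier Nubpl (1.29 ± 0.16 (SE), adjusted p = 5.74e-06) and the membrane insertase Oxa1l (0.59 ± 0.092 (SE), adjusted p = 5.11e-05) were named by the smallest p at 72 h. Oxa1l was lower at 24 h, by -0.49 ± 0.092. For Lyrm2 at 24 h the difference was 0.31 ± 0.053 with the brightest probe set and -0.0049 with the mean of its probe sets.

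Regulators of mitochondrial gene expression had 6, 14 and 5 of 19 higher and 4, 1 and 2 lower, with a median of 0.46 at 24 h and 0.026 at 72 h. Twnk, the helicase of mitochondrial DNA, had 10.42, 10.25 and 10.17 in chlorothalonil arrays, against 8.39, 8.48 and 8.46 in DMSO arrays at 24 h, 1.84 ± 0.12 (SE), adjusted p = 4.86e-09. Polg2, the accessory subunit of the mitochondrial DNA polymerase, differed by 1.13 ± 0.099 (SE), adjusted p = 8.87e-08, and Pprc1, a coactivator, by 0.85 ± 0.076 (SE), adjusted p = 1.14e-07. Of electron carriers and ubiquinone synthesis, 5, 9 and 7 of 16 were higher and 4, 2 and 5 lower. Coq5, a methyltransferase of ubiquinone synthesis, had 8.49, 8.43 and 8.39 in chlorothalonil arrays, against 6.46, 6.61 and 6.07 in DMSO arrays at 24 h, 2.06 ± 0.19 (SE), adjusted p = 1.67e-07, and differed by 1.32 ± 0.19 at 72 h. Pdss2, which makes the ubiquinone tail, was higher at 24 h (1.29 ± 0.14) and lower at 72 h (-0.78 ± 0.14), with 6.84, 7.04 and 7.27 in chlorothalonil arrays, against 7.58, 7.97 and 7.94 in DMSO arrays at 72 h. Coq10b, a ubiquinone-binding protein, was higher at all 3 times (0.32 ± 0.091, 0.94 ± 0.091 and 0.54 ± 0.091). The lowest changes of this list at 6 and 24 h were those of Coq8a, -1.53 and -2.72.

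The tricarboxylic acid cycle and pyruvate dehydrogenase had 7, 9 and 10 of 20 genes higher and 5 lower at each time, and their median at 24 h was 0.091. Pdhb and Pdhx, subunits of pyruvate dehydrogenase, differed by 0.67 ± 0.063 and 1.65 ± 0.088 at 24 h and by 0.77 ± 0.063 and 0.87 ± 0.088 at 72 h. Pdk1, a kinase that switches that enzyme off, had 10.59, 10.45 and 10.58 in chlorothalonil arrays, against 9.13, 9.32 and 9.07 in DMSO arrays at 72 h, 1.37 ± 0.1 (SE), adjusted p = 2.22e-08, and with the mean of its probe sets (0.19) it did not pass the threshold. Other kinases of that enzyme had the lowest changes of the list earlier, -2.73 for Pdk2 at 6 h and -1.32 for Pdk4 at 24 h. Carriers and channels had 3, 7 and 7 of 11 higher and 0, 1 and 0 lower, with Atp5if1 among them. The ADP/ATP carrier Slc25a5 had 13.56, 13.52 and 13.48 in chlorothalonil arrays, against 12.80, 12.80 and 12.73 in DMSO arrays at 24 h, 0.75 ± 0.056 (SE), adjusted p = 1.56e-08, and was uncalled at 6 and 72 h. Vdac3, a channel of the outer membrane, differed by 0.37 ± 0.049 (SE), adjusted p = 6.49e-06, and the aspartate-glutamate carrier Slc25a13 by 0.69 ± 0.1 (SE), adjusted p = 2.08e-05.

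**Figure D5:**
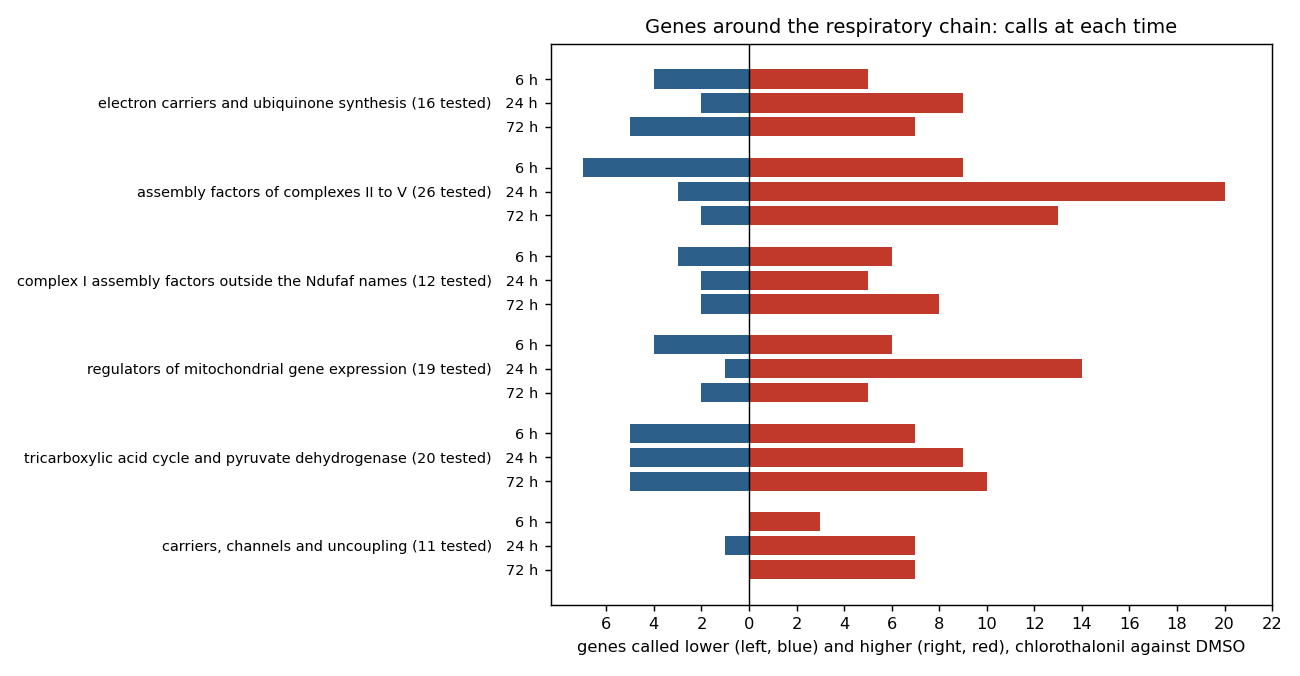
Number of genes called higher (right, red) and lower (left, blue) in chlorothalonil against DMSO at 6, 24 and 72 h (horizontal axis, counts) in 6 lists of genes around the respiratory chain, with the number tested beside each name. Bars for assembly factors of complexes II to V reach 20 of 26 and those for regulators 14 of 19 at 24 h on the deposited scale, while directions turn for many genes under poly-A scaling.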

How the data were processed

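Total RNA of 18 cultures was hybridised, 1 array each, to a 1-colour rat expression array. The authors deposited log2 values, for which the submitters' processing notes name GCRMA, with version and settings not given in the sources used here. Values normalized across arrays give levels relative to the other transcripts of an array, so a change in total RNA per cell is not seen. Groups were taken from the labels, 3 arrays each of chlorothalonil and DMSO at 6, 24 and 72 h. Probe sets were named from the platform annotation where it gave 1 symbol (20832 of 31099), updated through RefSeq. The brightest per gene was kept if above log2 4 in 3 arrays, leaving 9149 genes. Group means were fitted to all 18 arrays with limma 3.58.1 in R 4.3.3 (12 residual and 2.76 prior degrees of freedom), with two-sided tests and Benjamini-Hochberg adjustment over 9149 genes at 0.05. The fit was tested on simulated data. Precision is limited by 3 arrays per group.

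The members and lists were chosen with earlier results of these data known. Members named in the text were the highest and lowest called in each complex and time, those called in 1 direction at all times or in both directions, the assembly factors and inhibitor, and a fixed set of isoforms and complex II subunits; from each list, the 3 of smallest p at the time with most calls are named. Other genes with values (Nrf1, Gabpa, Gabpb1, Yy1, Cyc1, Atp5f1b, Uqcrc2, Uqcrfs1, Coq8a, Pdk2 and Pdk4) were chosen after their values were seen. Alternatives were the scaling, filter, choice of probe set, array weights, samples in the fit, a replicate block and leaving out each array. Python 3.11.15, pandas 2.3.3 and matplotlib 3.10.9 were used for tables and figures.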

Additional observations from a re-analysis of the deposited data

Results flagged for a closer look

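For the members named above, the effect of chlorothalonil against DMSO at a later time was set against that at the time before, by the difference of the effects in limma (adjusted p below 0.05, 3 arrays in each of the 4 groups). Positive values mean that the log2 change was higher at the later time. At 24 h the effect was more positive than at 6 h, by log2 differences of 0.33 for Atp5f1a, 0.50 for Atp5f1d, 0.28 for Atp5mc3, 0.30 for Cox5b, 0.62 for Ndufa5 and 0.44 for Ndufa8. Further such differences were 0.76 for Ndufab1, 1.27 for Ndufaf1, 1.81 for Ndufaf4, 1.16 for Ndufaf7, 0.79 for Ndufaf8 and 0.54 for Ndufb7. Further such differences were 0.48 for Ndufv3, 0.25 for Sdhd and 0.60 for Uqcrc1. At 24 h the effect was more negative than at 6 h, by log2 differences of -0.21 for Cox7a2l, -0.48 for Ndufa6, -0.42 for Ndufaf3, -0.61 for Ndufb2 and -0.43 for Uqcr11. At 72 h the effect was more positive than at 24 h, by log2 differences of 0.52 for Atp5if1, 0.45 for Atp5mf, 0.37 for Cox8a, 0.44 for Ndufa5, 0.52 for Ndufa6 and 0.36 for Ndufa7. Further such differences were 0.96 for Ndufaf3, 0.36 for Ndufb2, 0.42 for Sdha, 0.39 for Sdhb, 0.25 for Sdhd and 0.45 for Uqcr11. Further such differences were 0.30 for Uqcrq. At 72 h the effect was more negative than at 24 h, by log2 differences of -0.45 for Atp5f1a, -0.35 for Atp5mc3, -0.72 for Cox5a, -0.26 for Ndufa8, -0.38 for Ndufab1 and -1.61 for Ndufaf4. Others below zero were -0.36 for Ndufaf8, -0.50 for Ndufb7, -0.46 for Ndufs8, -0.86 for Ndufv3 and -0.55 for Uqcrc1. The widest values in both directions were those of Ndufaf4.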

How the results depend on the processing

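The number of arrays (3 per group) limits the precision of each value. The count of members called kept within 1.5 times its main value in all 20 comparisons and directions with a filter at log2 6, with no filter and with the mean of all probe sets of a gene. Across single arrays left out, members higher at 6, 24 and 72 h numbered 23 to 30, 36 to 42 and 46 to 53, and members lower 0 to 2, 3 to 7 and 2 to 3. Differences of the effect from 6 to 72 h that were lower numbered 3 to 7, members lower in DMSO at 72 h against 24 h 16 to 33, and members lower under chlorothalonil at 24 h against 6 h 1 to 5. Centring on array medians gave 48 higher and 0 lower at 6 h, 11 lower at 24 h and 5 lower at 72 h, with medians of 0.20, 0.10 and 0.17. Under centring the effect differences were 13 higher and 26 lower from 6 to 24 h and 18 higher and 17 lower from 6 to 72 h, 29 members were higher in DMSO at 24 h against 6 h, and 13 were lower under chlorothalonil. Quantile normalization gave 4 lower at 6 h, 1 lower under chlorothalonil at 24 h against 6 h and a median of 0.12 at 24 h. Members lower at 6 h numbered 4 with array weights, 3 with a trended prior, 2 with probe sets lacking _a, _s or _x endings and 0 with only the groups compared in the fit. That last fit gave 3 lower at 24 h, 19 lower in DMSO at 72 h against 24 h and 2 lower under chlorothalonil at 24 h against 6 h, where array weights gave 8. Without the 3 arrays of lowest weight, an alternative chosen after seeing the data, 2 were lower at 6 h, and the effect differences that were lower numbered 9 from 24 to 72 h and 3 from 6 to 72 h. The cause of these shifts was not tested. All-gene shares under the alternatives are not given, so these counts do not compare the members with all genes.

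Replicate numbers were shared between treatments, but same-numbered arrays had correlated deviations of -0.0438 to 0.305, not all above 0.1, so the numbers were not taken to pair cultures. With the replicate number as a block, 3 members were lower under chlorothalonil at 24 h against 6 h, against 5 without it, and the other 19 counts stayed within 1.5 times. Of 90 treatment calls of the named members, 16 were lost without at least 1 of the 18 arrays, 12 with quantile normalization, 7 with centring, 9 with only the groups compared, 3 with the block and 5 with the mean of probe sets, which also turned the sign of 1.

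Scaling to the poly-A controls, which moves all genes of an array alike, left 0, 1 and 0 members higher and 3, 56 and 4 lower at 6, 24 and 72 h, with medians of -0.50, -0.89 and -0.41. Effect differences then numbered 1 higher and 0 lower from 6 to 24 h, 2 and 0 from 24 to 72 h, and 0 and 0 from 6 to 72 h. Members higher and lower were 1 and 2 in DMSO at 24 h against 6 h, 0 and 4 in DMSO at 72 h against 24 h, 1 and 0 under chlorothalonil at 24 h against 6 h, and 5 and 3 under chlorothalonil at 72 h against 24 h. Of the 90 treatment calls of named members, 68 turned sign under this scaling and 12 kept their sign without a call. The shift at 24 h depends in part on DMSO replicate 1 of that time, which had a poly-A mean of 8.97. Only changes called on the deposited scale, of these members and of the genes named from the lists, are given by gene here, and uncalled ones moved by the same shift. At 6 h they were Atp5f1e -0.31, Atp5if1 -0.34, Atp5me -0.28, Cox4i1 -0.45, Cox5b -0.38, Cox6b1 -0.45, Cox7a2l -0.35, Cox8a -0.44, Ndufa7 -0.25, Ndufa8 -0.46, Ndufaf8 -0.30, Ndufb2 -0.20, Ndufb3 -0.39, Ndufb6 -0.38, Ndufb7 -0.39, Ndufs8 -0.30, Ndufv2 -0.42, Sdhb -0.36, Sdhc -0.34, Uqcr11 -0.37, Uqcrq -0.31, Coq10b -0.29, Cox16 -0.40, Lyrm2 -0.087, Nubpl -0.19, Pdhx -0.39, Pdk1 -0.36 and Uqcc2 -0.26. At 24 h they were Atp5f1d -0.52, Atp5if1 -0.73, Atp5mc3 -0.83, Cox4i1 -0.79, Cox5a -0.22, Cox5b -0.53, Cox6a1 -0.87, Cox6b1 -0.70, Ndufa4 -0.90, Ndufa5 -0.37, Ndufa7 -0.63, Ndufa8 -0.48, Ndufab1 -0.20, Ndufaf3 -0.78, Ndufaf5 -0.71, Ndufaf7 -0.16, Ndufb3 -0.77, Ndufb6 -0.70, Ndufb7 -0.31, Ndufv2 -0.75, Ndufv3 -0.65, Sdhb -0.85, Uqcrc1 -0.34, Uqcrh -0.96, Uqcrq -0.60, Coq10b -0.14, Cox16 -0.59, Lyrm2 -0.77, Pdhb -0.41, Pprc1 -0.23, Slc25a13 -0.38, Slc25a5 -0.33 and Vdac3 -0.70. At 72 h they were Atp5f1d -0.15, Atp5me -0.28, Atp5mf -0.41, Cox5b -0.22, Cox6a1 -0.18, Cox6b1 -0.17, Cox7a2l -0.48, Cox8a -0.33, Ndufa4 -0.38, Ndufa6 -0.48, Ndufa8 -0.34, Ndufab1 -0.17, Ndufaf5 -0.16, Ndufb3 -0.29, Ndufb6 -0.072, Ndufb7 -0.41, Ndufv2 -0.32, Sdhb -0.055, Sdhc -0.37, Sdhd -0.33, Uqcr11 -0.41, Uqcrh -0.48, Coq10b -0.13, Cox16 -0.43, Oxa1l -0.082, Sco1 -0.16 and Twnk -0.15. With the mean of all probe sets, Ndufa7 turned to -0.12 at 72 h and Lyrm2 to -0.0049 at 24 h.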
